A study of Mus musculus with 7 samples.

Results

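The genes described here are 54 genes of skeletal muscle, which build the sarcomere, couple excitation to calcium release and supply the contracting fiber with energy. They were picked by name and function, and all 54 were found among the 34592 genes counted in 7 mouse Group 3 medulloblastomas (G3 MBs). By role they fall into 11 fast forms, 8 slow forms, 3 embryonic forms, 2 cardiac forms, 13 sarcomere genes shared by fiber types, 9 genes of excitation and calcium handling and 8 genes of metabolism.

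Of the tumors, 4 overexpressed human WDR11 (WDR11OE) and 3 were controls, and the study compared them to learn which transcripts change with WDR11. All 7 came from tumorsphere line # 19568, grown from Trp53-/-;Cdkn2c-/- mouse cerebellar granule neuron progenitors that carried a retrovirus for Myc and a fluorescent protein. For this line the methods name the green protein, whereas a figure legend of the study names the red one. The dissociated spheres were infected with a lentivirus that expresses WDR11 from the EF1 promoter together with copGFP, or, per the methods, with the empty vector, although the labels list no treatment for the controls. The cells were not sorted for infection before they were grafted into the cortex of nude CD1 nu/nu hosts, so tumors can hold cells without the vector. By the labels' extraction protocol the RNA came from frozen chunks of tumor, which also hold cells of the host, although the labels name the source of each sample as tumorspheres. The ages of the hosts of these 7 tumors were not given in the sources used here.

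Total counts were 33417175 to 41397427 in the controls, whereas they ranged from 32116095 in WDR11OE replicate 3 and 42252257 in replicate 1 to 85371523 in replicate 2 and 87141305 in replicate 4. Library numbers of the 2 conditions belong to separate series, so the series and the condition cannot be told apart, and the titles of WDR11OE replicates 1 and 2 share a number. The study treats the tumors as biological replicates, but no source used here assigns the libraries to mice, so the p-values measure the spread between these libraries, which may be technical. The mouse Wdr11 row, where reads of the human cDNA could be counted in part, held 58.3 to 59.3 CPM (counts per 1000000 counts of the scaled library) in controls and 61.0 to 68.9 CPM in WDR11OE tumors, and edgeR's quasi-likelihood test gave a log2 difference of 0.16 with an adjusted p of 0.0910. Of the markers listed for the tumor, Mki67, Top2a and Myc were abundant, and Myc was lower in WDR11OE tumors (log2 fold change -1.40, adjusted p = 0.00227 in edgeR's test). Nes, Sox2 and Pax6 had means of 47.9, 22.6 and 20.9 CPM in controls and 49.1, 19.0 and 21.4 CPM in WDR11OE tumors. Zic1, Zic2 and Neurod1 had means of 10.1, 3.35 and 0.604 CPM against 7.07, 5.76 and 0.785 CPM. Otx2 had at most 20 counts, Barhl1 at most 1 and Atoh1 none in any of the 7 tumors.

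In striated muscle, myosin heads on the thick filament pull on actin of the thin filament when calcium binds troponin, which moves tropomyosin aside. Calcium enters the cytoplasm from the sarcoplasmic reticulum through the ryanodine receptor and is pumped back by a calcium ATPase, and creatine kinase buffers the ATP that both steps spend. Many of these proteins have separate genes for fast, slow, embryonic and cardiac fibers, and neurons or dividing tumor cells use further, non-muscle forms of the same proteins.

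Of the 54 genes, 44 passed edgeR's filter on low counts and 10 did not. At an adjusted p under 0.05 and at least a 2-fold difference, 35 were higher in WDR11OE tumors, 0 were lower and 9 were not called, whereas 3.53% of all 17389 tested genes were called higher and 3.95% lower. At an unadjusted p under 0.05, 2 members were lower (Jph1 and Tpm1), as were 19.9% of all tested genes. limma-voom called 30 members higher and 0 lower, where it called 3.45% of all genes higher and 3.89% lower, and DESeq2 called 34 members higher and 0 lower, where it called 3.11% of all genes higher and 4.7% lower. Some members passed the filter only because they were high in the WDR11OE tumors, so the share called is a description of those that passed and not of all 54. The median log2 fold change was 3.13 over the 44, or 3.00 with the 3 genes that had no control counts set at their lower bound, and 0.08 over all tested genes. In 30 of the 41 members with at least 20 counts in each WDR11OE library, raw counts varied less over these 4 libraries than CPM did, which bears on the fold changes given here. In RNA from whole tumor pieces, fewer cells of a kind and less RNA per cell cannot be told apart.

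**Figure D1:**
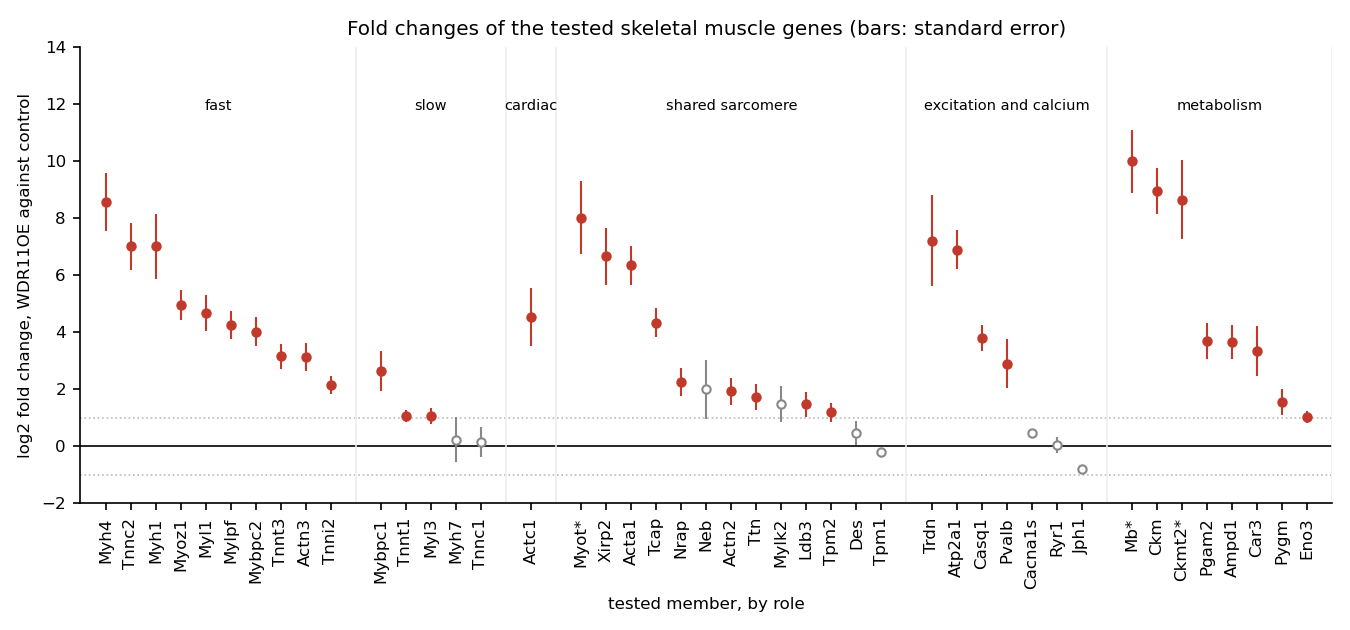
Log2 fold change of WDR11OE against control tumors, vertical axis, with its standard error, for the 44 tested members grouped by role. Filled red circles were called higher, open circles were not called, dotted lines mark a 2-fold change, and an asterisk marks the 3 genes with no counts in any control, whose fitted fold depends on the prior count; all 10 tested fast forms and all 8 metabolism genes lie above the upper line.

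The myosin heavy chains, the motor proteins of the thick filament, showed the contrast between forms most plainly. Because the data set forms of a single family apart, the 250 bases before the transcription start of 4 of these genes are given, from RefSeq on GRCm38.p6. They are the fast genes Myh4 at chr11:67237562-67237811 and Myh1 at chr11:67199852-67200101 and the perinatal gene Myh8 at chr11:67276874-67277123, all on the plus strand, and the slow gene Myh7 at chr14:54994627-54994876 on the minus strand. Each sequence reads 5′ to 3′ towards the start, and capitals mark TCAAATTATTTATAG, the longest stretch that the windows of Myh4, Myh1 and Myh8 share, and CAGCTG, an E-box of the kind bound by myogenic factors. The end of the shared stretch is an A/T-rich site of the kind bound by MEF2 factors.
Myh4: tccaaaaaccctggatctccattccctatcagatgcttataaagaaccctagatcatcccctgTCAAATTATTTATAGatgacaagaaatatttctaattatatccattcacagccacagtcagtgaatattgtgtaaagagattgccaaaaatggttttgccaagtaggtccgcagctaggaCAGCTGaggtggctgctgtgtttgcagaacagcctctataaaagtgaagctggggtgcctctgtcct
Myh1: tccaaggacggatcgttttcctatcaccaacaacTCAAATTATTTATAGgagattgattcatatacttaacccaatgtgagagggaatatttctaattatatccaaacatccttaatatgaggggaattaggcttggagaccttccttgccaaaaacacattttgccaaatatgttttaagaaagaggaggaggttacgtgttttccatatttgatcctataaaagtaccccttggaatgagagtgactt
Myh8: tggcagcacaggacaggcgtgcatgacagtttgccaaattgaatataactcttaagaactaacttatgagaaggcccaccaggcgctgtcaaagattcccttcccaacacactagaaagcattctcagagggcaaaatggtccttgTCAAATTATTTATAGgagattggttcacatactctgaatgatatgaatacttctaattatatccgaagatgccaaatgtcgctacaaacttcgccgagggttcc
Myh7: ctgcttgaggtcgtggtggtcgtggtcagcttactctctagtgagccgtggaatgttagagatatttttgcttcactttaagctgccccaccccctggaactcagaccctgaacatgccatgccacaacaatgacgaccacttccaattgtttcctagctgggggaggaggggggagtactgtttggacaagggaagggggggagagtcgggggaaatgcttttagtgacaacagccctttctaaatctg
The shared stretch of 15 bases begins at base -216 of Myh1, -187 of Myh4 and -104 of Myh8, the E-box at -67 of Myh4, and the window of Myh7 holds neither. Both were searched on both strands of the same 250 bases of every RefSeq promoter, and the shared stretch was found in these 3 of 32851 windows (0.00913%) and no others. It was picked from these 3 windows after they had been read, so its rarity elsewhere is no test. CAGCTG was in 4271 of all windows (13.0%) and in 23 of the 48 windows of the 40 members that matched (47.9%), which belong to 21 genes, among them Acta1, Ckm, Mb, Atp2a1, Mylpf and Des. The shared letters do not run with the counts, since Myh8 holds the stretch of Myh1 and Myh4 and had at most 5 counts in any tumor. These are matches of letters, and binding was not measured.

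Myh4, the heavy chain of the fastest fibers (ENSMUSG00000057003, NCBIM37 chr11:67051314-67073948, plus strand), had 6, 0 and 0 counts in control replicates 1 to 3 and 1084, 1030, 1176 and 1089 counts in WDR11OE replicates 1 to 4. Scaled to depth these were 0.167, 0 and 0 CPM against 25.7, 12.9, 36.2 and 11.9 CPM. Every WDR11OE tumor lay far above every control, and replicate 3, the shallowest library, was the highest after scaling and replicate 4, the deepest, the lowest. The fitted log2 fold change of 8.57 had a standard error (SE) of 1.02 and an adjusted p of 0.00138 (edgeR, quasi-likelihood test). All control counts lay in control replicate 1, and the fitted value was 13.17 without it, where it depends on the prior count, and 7.93 without control replicate 2.

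Myh1, its neighbor on the chromosome and the heavy chain of another fast fiber type, had 6, 0 and 0 counts in controls and 248, 375, 478 and 383 in WDR11OE tumors, or 7.37 ± 4.96 CPM (SD, n = 4), and rose by 7.004 on the log2 scale (SE 1.14, adjusted p = 0.00390 in edgeR's test), or by 11.62 without control replicate 1 and 6.38 without control replicate 2. Myh2, the third fast heavy chain, had 4, 0 and 0 against 15, 19, 23 and 16 counts and did not pass the filter. Of the coding transcripts' 50-base stretches, 18.8% in Myh4, 25.2% in Myh1 and 26.5% in Myh2 also occur in other genes, nearly all of them other myosin heavy chains, so the division of reads among these genes is uncertain. Per kb of exon, which allows levels to be compared between genes, Myh4 took 70.6% to 80.7% and Myh1 17.5% to 27.3% of the 6 heavy chains of skeletal muscle in the WDR11OE tumors. Myh2 took 0.878% to 1.17%, the embryonic Myh3 at most 2.10%, the perinatal Myh8 at most 0.191% and the slow Myh7 at most 2.64%. The controls held only 42, 13 and 11 counts over these 6 genes, too few to set a share.

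Troponin is the calcium switch of the thin filament, and its fast subunits are Tnnc2 (calcium binding), Tnni2 (inhibitory) and Tnnt3 (tropomyosin binding). Tnnt3 had 44, 54 and 31 counts in controls and 533, 552, 513 and 518 in WDR11OE tumors, or 1.22, 1.29 and 0.95 CPM against 12.6, 6.89, 15.8 and 5.67 CPM. Its groups did not overlap, and its log2 fold change was 3.14 (SE 0.42, adjusted p = 0.00197). Tnni2 had 108, 77 and 58 counts against 378, 933, 381 and 581, with 3.00, 1.84 and 1.78 CPM against 8.95, 11.6, 11.7 and 6.36 CPM. This was the smallest change among the fast forms, 2.13 on the log2 scale (SE 0.31, adjusted p = 0.00259), and unlike Tnnt3 its raw counts were higher in the deeper libraries. Tnnc2 had only 1, 0 and 2 counts in controls and 197, 212, 203 and 181 in WDR11OE tumors. Its pooled level was 119 times that of the controls, with an exact 95% interval of 40.5 to 577 that covers counting error only.

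The remaining fast forms rose as well, namely the alkali light chain Myl1 (log2 fold change 4.67), the regulatory light chain Mylpf (4.26), the myosin-binding protein Mybpc2 (4.02), the Z-disc protein Myoz1 (4.96) and the alpha-actinin Actn3 (3.11), with adjusted p between 0.00112 and 0.00354. All 10 tested fast forms were called, and each kept its call under every alternative fit in which it was tested. Myoz1, with an average log2 CPM of -0.40, missed the call where an average above 0 was also required. Summed per kb, the 11 fast forms were at 3.07 ± 0.586 CPM per kb (SD, n = 3) in controls and at 36.2 ± 15.7 CPM per kb (SD, n = 4) in WDR11OE tumors.

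Of the 8 slow forms, 3 were called higher, 2 were not called and 3 were not tested. Tnnt1, the slow tropomyosin-binding subunit, was at 0.889, 0.763 and 0.736 CPM in controls and at 1.63, 1.81, 1.45 and 1.69 CPM in WDR11OE tumors, and rose by 1.05 on the log2 scale (SE 0.21, adjusted p = 0.00837). Myl3, the slow and ventricular alkali light chain, was at 0.945, 0.477 and 0.736 CPM against 1.47, 1.46, 1.72 and 1.29 CPM, also 1.05 (SE 0.29, adjusted p = 0.0286). Neither gene's groups overlapped. The change of Tnnt1 was under 2-fold without control replicate 3 or WDR11OE replicate 2 (0.99 and 0.95), and its adjusted p was 0.0975 with WDR11OE replicates 1 and 3 only. The call of Myl3 was lost without control replicate 2 or 3 or WDR11OE replicate 1, 2 or 3 (adjusted p from 0.0676 to 0.0807). Mybpc1, the slow myosin-binding protein, was at 0.528, 0.453 and 0.061 CPM against 1.61, 1.20, 3.54 and 2.42 CPM and had the largest change of the slow forms, 2.63 (SE 0.69, adjusted p = 0.0240). It lost the call without control replicate 2 (adjusted p = 0.0646) or WDR11OE replicate 3 (0.0547).

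Tnnc1, the calcium-binding subunit of slow and cardiac fibers, was at 0.417, 0.072 and 0.276 CPM in controls and at 0.308, 0.324, 0.246 and 0.230 CPM in WDR11OE tumors. The groups overlapped (log2 fold change 0.14, SE 0.53, adjusted p = 0.872), and without control replicate 2 the value turned to -0.32. Myh7, the slow heavy chain, also overlapped, at 15, 7 and 6 counts against 6, 5, 11 and 58 (log2 fold change 0.22, SE 0.79, adjusted p = 0.858). Tnni1, Myl2 and Myoz2 had at most 8 counts in any tumor and were not tested. The slow forms summed to 1.35 ± 0.439 CPM per kb (SD, n = 3) in controls and 2.73 ± 0.254 CPM per kb (SD, n = 4) in WDR11OE tumors.

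Set side by side per kb, the fast form lay above its slow partner in all 4 WDR11OE tumors in 7 of 8 pairs. The exception was Mybpc2 against Mybpc1, where the slow form was the higher in WDR11OE replicate 4. In the controls the fast form was above in all 3 tumors in 4 pairs (Tnni2, Tnnt3, Mylpf and Myoz1) and in none in 3 pairs (Tnnc2, Myh4 and Myl1). For troponin C, Tnnc2 against Tnnc1 was at 0.0371 ± 0.0384 against 0.242 ± 0.165 CPM per kb (SD, n = 3) in controls and at 4.86 ± 2.43 against 0.264 ± 0.0437 CPM per kb (SD, n = 4) in WDR11OE tumors. The order of this pair was thus opposite in the 2 conditions. Whether the change of a fast form differed from that of its partner was not tested.

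**Figure D2:**
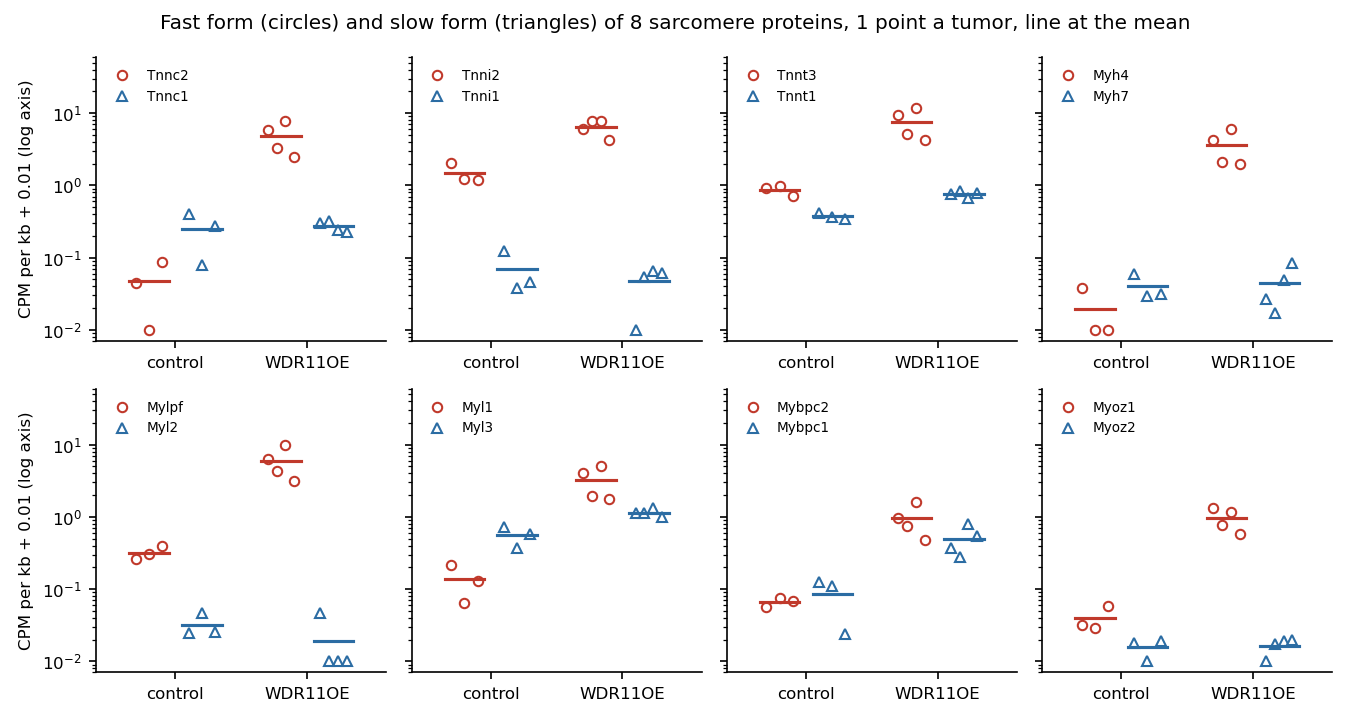
Level per kb of exon (CPM per kb with 0.01 added, log axis) of 8 fast forms, red circles, and their slow partners, blue triangles, with 1 point for each of 3 control and 4 WDR11OE tumors in replicate order and a line at the group mean. The fast points stand above the slow points in every WDR11OE tumor except in the Mybpc2 panel, and values at 0.01 are tumors with no counts.

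Of the 3 embryonic and 2 cardiac forms among the 54 genes, 1 was tested. The embryonic heavy chain Myh3 had 8, 3 and 3 counts in controls and 4, 18, 3 and 33 in WDR11OE tumors, and Myh8 had 3, 3 and 2 against 5, 2, 5 and 5. Mybph, a myosin-binding protein listed here with the embryonic forms, had 1, 2 and 0 against 5, 11, 13 and 7 counts. None of these 3 passed the filter. Actc1, the actin of heart and of immature skeletal muscle, had 1, 2 and 0 counts in controls and 31, 20, 47 and 27 in WDR11OE tumors, or 0.028, 0.048 and 0 CPM against 0.734, 0.250, 1.45 and 0.296 CPM, and it rose (log2 fold change 4.51, SE 1.02, adjusted p = 0.0133). Tnnt2, the cardiac tropomyosin-binding subunit, had 5, 6 and 1 counts against 2, 6, 6 and 41 and was not tested. Of the summed level per kb of the 24 forms, fast forms made up 90.5% ± 3.26 (SD, n = 4) in WDR11OE tumors, slow forms 7.66% ± 2.76, cardiac forms 1.53% ± 0.773 and embryonic forms 0.358% ± 0.106. In the controls, where the sum was small, fast forms made up 64.8%, 70.2% and 67.5%. The cardiac share counts Actc1 and Tnnt2 alone and depends on that choice. With the heart gene Mybpc3, which is not among the 54 and was at 7.66 ± 2.41 CPM per kb (SD, n = 4), counted as a cardiac form, cardiac forms made up 18.6% ± 5.49 and fast forms 74.8% ± 6.88 in WDR11OE tumors, a count chosen after its values were seen.

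Among the 13 sarcomere genes shared by fiber types, 9 rose. Acta1, the skeletal alpha-actin of the thin filament, had 12, 4 and 3 counts in controls and 696, 705, 764 and 725 in WDR11OE tumors, or 0.333, 0.095 and 0.092 CPM against 16.5, 8.79, 23.5 and 7.94 CPM. The groups were far apart, with a log2 fold change of 6.34 (SE 0.69, adjusted p = 0.00118). Actb, the cytoplasmic beta-actin, fell by 0.96 on the log2 scale in the same fit (SE 0.13, adjusted p = 0.00221). Per kb, Actb still outnumbered Acta1 in every tumor, with 467 ± 38.0 CPM per kb against 9.81 ± 5.06 CPM per kb (SD, n = 4) in WDR11OE tumors.

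Myot, a Z-disc protein, had no counts in any control and 24, 25, 42 and 37 in WDR11OE tumors, which is at least 7.01-fold higher than the 3 counts taken as the floor in the shallowest control. Xirp2, an actin-binding protein of striated muscle, had 1, 0 and 0 counts against 67, 41, 62 and 62. Tcap, the titin cap, had 2, 3 and 2 against 49, 70, 75 and 86 counts and rose by a log2 fold change of 4.32 (SE 0.52, adjusted p = 0.00139). Nrap, Actn2, Ttn, Ldb3 and Tpm2 rose by less, with log2 fold changes between 1.18 and 2.24. Of these, Actn2, Ttn, Ldb3 and Tpm2 lost the call when some single libraries were left out, always including control replicate 3 (adjusted p from 0.0611 to 0.110 without it).

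Neb, nebulin, the giant protein that spans the thin filament, behaved otherwise. It was at 5.09, 9.68 and 8.43 CPM in controls and at 19.3, 2.83, 89.3 and 11.9 CPM in WDR11OE tumors, so its lowest and its highest tumor were both WDR11OE. The groups overlapped and the log2 fold change of 1.99 had an SE of 1.04 (adjusted p = 0.189). Tpm1, an alpha-tropomyosin that non-muscle cells also use, was the most abundant member, at 416, 422 and 388 CPM in controls and 360, 377, 356 and 312 CPM in WDR11OE tumors. Every control was above every WDR11OE tumor, but the difference did not pass (log2 fold change -0.22, SE 0.09, adjusted p = 0.0954). Des (desmin, the intermediate filament of muscle) and Mylk2 (the skeletal myosin light chain kinase) overlapped between the groups, with log2 fold changes of 0.45 and 1.48 and adjusted p of 0.447 and 0.113.

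Of the 9 genes of excitation and calcium handling, 4 were called higher, 3 were not called and 2 were not tested. Atp2a1, the calcium ATPase of fast fibers, had 7, 6 and 2 counts in controls and 868, 777, 879 and 730 in WDR11OE tumors, or 0.195, 0.143 and 0.061 CPM against 20.6, 9.69, 27.1 and 7.996 CPM. It rose with a log2 fold change of 6.90 (SE 0.68, adjusted p = 0.00105), while Atp2a2, the ATPase of most other cells, was lower (log2 fold change -0.37, SE 0.07, adjusted p = 0.00620). Casq1, which stores calcium in the reticulum of fast fibers, rose by 3.80 (SE 0.46, adjusted p = 0.00141). Pvalb, the calcium buffer parvalbumin, which neurons also express, had 67, 8 and 9 counts against 263, 311, 307 and 322 and rose by 2.89 (SE 0.86, adjusted p = 0.0365). Its call was lost without control replicate 2 or 3 or WDR11OE replicate 1, 2 or 3 (adjusted p from 0.0568 to 0.104).

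Trdn, triadin, which anchors Casq1 to the ryanodine receptor, had 0, 1 and 0 counts in controls and 23, 17, 49 and 403 in WDR11OE tumors. WDR11OE replicate 4 held most of its counts, and the pooled ratio of 221 had an exact 95% interval of 39.5 to 8746. Its adjusted p was 0.0129 and rose to 0.0617 without control replicate 2 and to 0.05002 without control replicate 3. Sln (sarcolipin, an inhibitor of the ATPase) and Cacng1 (the gamma subunit of the calcium channel) had no counts in controls and at most 4 and 13 in WDR11OE tumors, and neither was tested.

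The pore-forming subunit of the muscle calcium channel, Cacna1s, was by contrast abundant in every tumor. It was at 207, 130 and 132 CPM in controls and at 213, 222, 218 and 195 CPM in WDR11OE tumors, and control replicate 1 lay within the WDR11OE range. The log2 fold change was 0.44 (SE 0.17, adjusted p = 0.0862), and without control replicate 1 it was 0.69 (adjusted p = 0.00422). Ryr1, the ryanodine receptor of skeletal muscle, was at 6.28 to 9.97 CPM in controls and 6.08 to 12.3 CPM in WDR11OE tumors, and these overlapped (log2 fold change 0.04, SE 0.28, adjusted p = 0.931). It turned to -0.14 without control replicate 3 and to -0.17 without WDR11OE replicate 4. Jph1, junctophilin, which holds the reticulum against the surface membrane, was at 18.9, 16.2 and 16.6 CPM in controls and 10.8, 11.1, 9.31 and 7.82 CPM in WDR11OE tumors. It was the only member lower at an adjusted p under 0.05 at any fold (log2 fold change -0.82, SE 0.15, adjusted p = 0.00637), where 15.8% of all tested genes were lower.

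All 8 metabolism genes rose. Ckm, the muscle creatine kinase (ENSMUSG00000030399, NCBIM37 chr7:19996443-20006932, plus strand), had 1, 1 and 0 counts in controls and 508, 538, 544 and 423 in WDR11OE tumors, or 0.028, 0.024 and 0 CPM against 12.03, 6.71, 16.8 and 4.63 CPM. Its pooled level was 452 times that of the controls, with an exact 95% interval of 125 to 3735. Ckb, the brain form of the kinase, remained far more abundant, at 76.0 ± 15.3 CPM per kb in controls (SD, n = 3) and 125 ± 42.0 CPM per kb in WDR11OE tumors (SD, n = 4), against 7.09 ± 3.86 CPM per kb of Ckm in the latter. Mb, myoglobin, which stores oxygen in the fiber, had no counts in any control and 99, 126, 155 and 126 in WDR11OE tumors, at least 27.4-fold higher than the floor. Ckmt2, the mitochondrial creatine kinase of striated muscle, likewise had none against 36, 48, 69 and 38 counts, at least 10.9-fold higher.

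Of the enzymes of glycogen and sugar use, Pygm, the muscle glycogen phosphorylase, was at 2.67, 2.22 and 0.919 CPM in controls and 5.12, 3.28, 8.57 and 5.89 CPM in WDR11OE tumors (log2 fold change 1.56, SE 0.45, adjusted p = 0.0346). It lost the call without control replicate 2 or 3 or WDR11OE replicate 1 or 3 (adjusted p from 0.0692 to 0.0831). Eno3, the muscle enolase, was at 10.2, 12.7 and 13.1 CPM against 30.3, 25.1, 24.9 and 16.9 CPM and had the smallest change of the 8 (log2 fold change 1.02, SE 0.21, adjusted p = 0.00903), which was under 2-fold without control replicate 1 or WDR11OE replicate 1 or 2 (0.86 to 0.96). Pgam2, the muscle phosphoglycerate mutase, Ampd1, the muscle AMP deaminase, and Car3, carbonic anhydrase 3, rose by 3.68, 3.65 and 3.33 on the log2 scale. Car3 lost its call without control replicate 2 or 3 or WDR11OE replicate 1 or 3 (adjusted p from 0.0527 to 0.0818) and was at 5.12 without control replicate 1. Among 15 pairs of a muscle form and a non-muscle partner, the muscle form was the lower per kb in all 7 tumors in 11. The listed non-muscle genes gave 0 calls among 29 tested, with 2 higher and 8 lower at any fold, where 18.1% of all tested genes were higher and, as given above, 15.8% lower.

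The raw counts of these genes showed a pattern that scaling hides. From WDR11OE replicate 3 to replicate 4 the library totals differed 2.71-fold, yet the summed counts of the 11 fast forms were 3411, 4202, 3797 and 3711 in replicates 1 to 4, a ratio of 1.23. Acta1, Myl1 and Tnnt3 had raw counts within 1.10-, 1.10- and 1.08-fold of each other in the 4 libraries. Counts of Acta1 and Myl1 also kept nearly the same proportion to Myh4 in each library, with 0.642 to 0.684 counts of Acta1 and 0.250 to 0.280 of Myl1 for each count of Myh4. Relative to Myh4, Atp2a1, Tnnt3, Tnnc2, Ckm and Mb varied more, by 1.195-, 1.229-, 1.238-, 1.345- and 1.443-fold. In CPM, Acta1, Myl1 and Tnnt3 therefore differed 2.79- to 2.96-fold, with the shallowest library highest.

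To set this against other genes, all 15042 genes with at least 20 counts in each WDR11OE library were compared, and this minimum and the limit of 1.5-fold were chosen after the counts had been seen. Raw counts lay within 1.5-fold over the 4 libraries in 25 genes (0.166%), of which 14 were members, 2 were other listed muscle genes (Hspb7 and Myom2) and 9 were neither, including the muscle kinase Mylk4. CPM lay within 1.5-fold in 69.8% of all genes and in 6 of the 41 members compared (14.6%). The raw ratio was the smaller of the pair in 0.964% of all genes, in 30 of the 41 members (73.2%) and in 0 of 29 non-muscle genes. The median raw ratio was 2.98 over all genes, 1.76 over the members and 1.22 over the fast forms. Among the 513 genes called higher that had this minimum it was 3.10, and the raw ratio was the smaller in 7.99%.

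**Figure D3:**
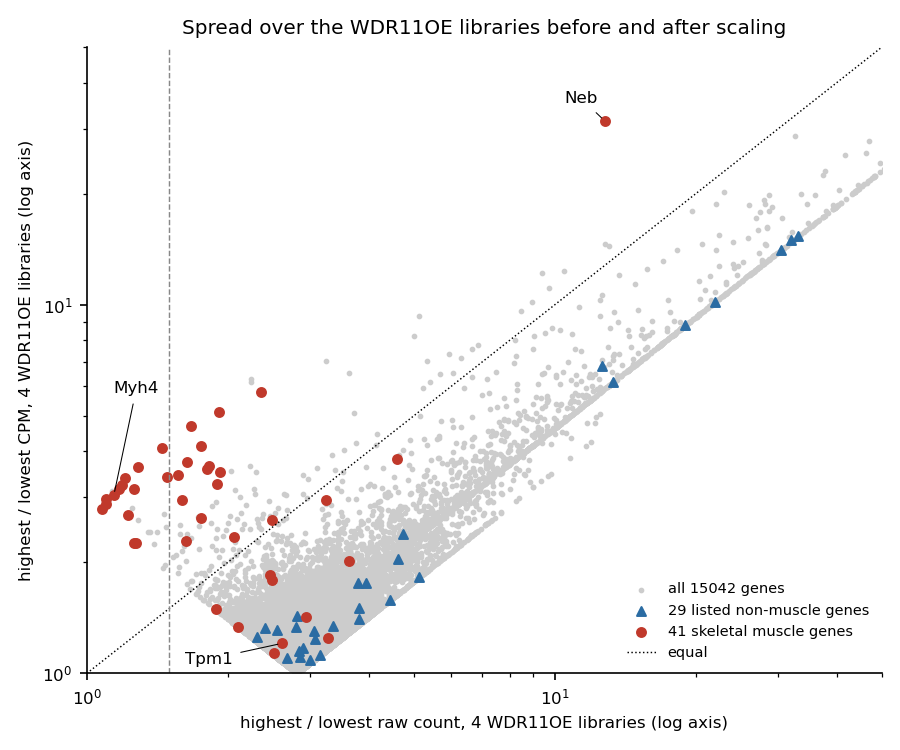
Highest over lowest raw count (horizontal, log axis) against highest over lowest CPM (vertical, log axis) in the 4 WDR11OE libraries, for 15042 genes in grey, 29 listed non-muscle genes as blue triangles and 41 members as red circles. The dotted line marks equal ratios and the dashed line a raw ratio of 1.5; 30 members lie above the dotted line, where scaling widened the spread, all 29 non-muscle genes lie below it, and 96 genes beyond a ratio of 50 are not shown.

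The members that differed from this pattern were mostly those that the controls held too. Tpm1 counts were 15210, 30202, 11566 and 28519 and Cacna1s counts 8999, 17777, 7087 and 17777 in WDR11OE replicates 1 to 4, and both were high in the 2 deep libraries. Eno3, Jph1, Tnni2, Tnnt1 and Myl3 had their highest counts in replicate 2 or 4. Trdn, Actn2, Ryr1, Pygm and Myh7 stood out in replicate 4, with 403, 553, 1122, 538 and 58 counts, each more than in any other tumor. This was not particular to the members. Of the other listed genes, Eno2, Jph3 and Zic1 were also highest there, with 9045, 1492 and 1534 counts. Others were not, such as Eno1, with 84838 counts in replicate 2 and 55064 in replicate 4. Relative to Myh4, Tpm1 thus varied 2.98-fold over the 4 libraries, whereas Acta1 varied 1.07-fold.

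**Figure D4:**
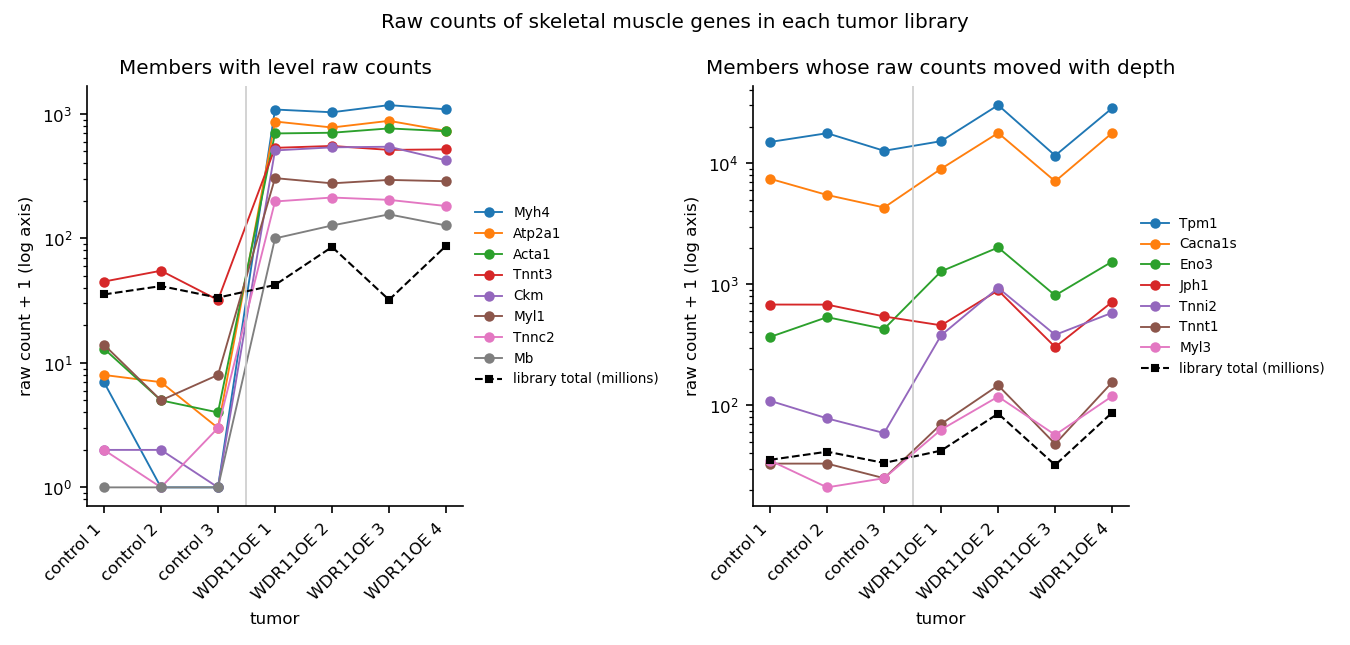
Raw count plus 1 on a log axis in each of the 3 control and 4 WDR11OE libraries for 8 members with level or nearly level counts, left, and 7 members whose counts moved with depth, right, with the library total, divided by 1000000, as a dashed line. On the left the lines are nearly flat over the 4 WDR11OE libraries (Myh4 1030 to 1176 counts) while the total varies. Mb, with 99 to 155 counts, varied 1.57-fold, above the limit of 1.5-fold used in the text. On the right they are higher in the deep WDR11OE replicates 2 and 4 than in replicates 1 and 3. Tpm1, Eno3, Jph1 and Tnni2 were nevertheless lower in replicate 4 than in replicate 2, although replicate 4 was the deeper.

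Most of the higher calls were made under other scalings too. With all libraries taken as equally deep, 30 members were higher and 0 lower (3.88% and 0.178% of all genes), and with WDR11OE replicates 1 and 3 only, whose totals are near those of the controls, 31 were higher and 0 lower (2.04% and 3.23%). Both settings were chosen after seeing the data. Myl3, Tnnt1, Tpm2, Ldb3, Pygm and Eno3 lost the call in the first setting. In the second Myl3, Tnnt1, Mybpc1, Ldb3, Pvalb and Pygm lost it. Both totals therefore also take in calls that were not made in the main fit. Taking all libraries as equally deep raised the median log2 fold change of all tested genes to 0.84, so the members that were not higher do rest on the scaling. Tpm1 turned from -0.22 to 0.50, below that median, and Jph1 went from -0.82 to -0.10 (adjusted p = 0.909). With WDR11OE replicates 1 and 2, whose titles share a number, summed as 1 tumor, 28 members were higher. The share of all genes called in that fit was not counted. Myl3, Tpm2, Ldb3, Pvalb and Pygm then had adjusted p from 0.0519 to 0.0820, and Tnnt1 and Eno3 fell under a 2-fold change.

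A count that stays level while the library total changes 2.71-fold is not proportional to the reads of its library. Whether these reads came from RNA of each tumor or entered the 4 libraries in another way was not tested, so the fold changes of Myh4, Ckm, Acta1 and the other genes with level counts are differences between the deposited counts. The 3 control libraries, whose numbers belong to another series, do not resolve this.

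Of 54 further muscle genes, 36 were tested and 8 were called higher (Trim63, Smyd1, Myom1, Myom2, Hspb7, Hrc, Clcn1 and Jsrp1), with 0 lower. Over all tested genes 3.53% were called higher and 3.95% lower, and 15.8% were lower with no limit on the fold. With no limit on the fold 2 were lower, the ubiquitin ligase subunit Fbxo32 (log2 fold change -0.66, adjusted p = 0.00794) and Srl, sarcalumenin (-0.33, adjusted p = 0.0342). Myom2, an M-band protein of fast fibers, had 2, 3 and 1 counts in controls and 52, 56, 59 and 67 in WDR11OE tumors. Pfkm, the muscle phosphofructokinase and an abundant gene of that list, had a log2 fold change of -0.08 and was not called. Of the factors that specify muscle, Pax7, Myf5, Myod1 and Myog had at most 3 counts in any tumor, and Myf6, the factor of mature fibers, had 2, 0 and 0 against 7, 5, 5 and 5. Mef2a and Mef2c did not pass, and Mef2d was lower (log2 fold change -1.15, SE 0.22, adjusted p = 0.00740).

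Markers of other contractile or connective cells were checked over their whole lists. The 8 smooth muscle genes summed to 40.1 to 48.0 CPM in controls and 29.2 to 33.9 CPM in WDR11OE tumors, with 0 called, and the 8 fibroblast genes to 3404 to 4248 CPM against 1361 to 1748 CPM, with 0 higher and 1 lower (Col3a1). Col3a1 held most of the fibroblast sum, with means of 2971 CPM in controls and 1111 CPM in WDR11OE tumors. Dcn and Lum had log2 fold changes of 1.05 and 0.46, the other listed genes had values below 0, and all of these except Col3a1 were not called. Of 10 heart genes, 5 were tested and 2 were called higher, Mybpc3 (log2 fold change 7.97) and Casq2 (2.67), where 3.53% of all tested genes were. Mybpc3, the cardiac partner of Mybpc1 and Mybpc2, had 1947, 2553, 793 and 2308 counts in WDR11OE tumors against 4, 8 and 2, the smallest number in the shallowest library. With no limit on the fold 3 heart genes were higher, as were 18.1% of all tested genes. They included Tnni3, with 83, 93 and 71 counts against 180, 436, 113 and 403 (log2 fold change 0.98, adjusted p = 0.00929 in edgeR's test). Myl4 was present in every tumor and overlapped between the groups. Of the heart genes not tested, Pln, Myl7 and Nppb had at most 7, 5 and 2 counts in any tumor. Myh6 had 0, 1, 7 and 19 and Nppa 0, 2, 10 and 56 in WDR11OE tumors.

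The 5 genes outside the list whose log2 CPM followed the mean of the fast forms most closely over the 7 tumors were Mtif2, Rnu73b, 2700046A07Rik, SNORD18 and Gm14756, with Pearson's r between 0.993 and 0.995. These points share the gap between the groups, so r says little of the order within a group. Mtif2, for example, had a log2 fold change of 0.29 and raw counts of 1576, 2822, 1234 and 3245 in WDR11OE tumors, which were high in the 2 deep libraries, unlike those of Myh4.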

How the data were processed

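RNA-seq of 7 G3 MBs was analysed. The authors mapped reads to NCBIM37 (mm9), with CASAVA 1.7, STAR, BWA and HTSeq named in the submitters' processing notes, and deposited raw counts per gene from HT-seq on GENCODE. The methods describe total stranded RNA, the labels a TruSeq RNA v2 kit, and the strand setting is not given in the sources used here, so antisense overlaps (Ube2c with Tnnc2, Nisch with Tnnc1, Rabep2 with Atp2a1, Apol6 with Mb) could share reads.

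In R 4.3.3, genes passing filterByExpr were scaled by TMM and tested two-sided with edgeR 4.0.16 (quasi-likelihood, Benjamini-Hochberg over 17389 genes, condition as the only term). A call needed an adjusted p under 0.05 and a 2-fold change. Log2 CPM use a prior count of 2, whereas the fitted log2 fold changes use the default prior count of edgeR's fit. CPM are per TMM-scaled library and levels between genes are per kb of merged exons (GENCODE vM1). Exact 95% intervals and the floor of 3 counts (0.0919 CPM in control replicate 3) cover counting error only. The fit was tested on simulated counts first. Alternatives were limma 3.58.1 with voom, as in the study, DESeq2 1.42.0, other scalings and filters, a GC correction and single libraries left out.

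The members and all gene lists were chosen with earlier results of these data known. Every member could be named. Values per tumor were given for the 3 most abundant members of each role and those with the lowest and highest fold changes, and for further members of each family where space allowed. From other lists the 2 most abundant genes and those at the ends were to be taken, but not all of these are named. The smooth muscle genes are given only as a sum. Other genes named from these lists were chosen after their values were seen. A gene that this rule would name is not reported here. Sequences are from RefSeq (GRCm38.p6), and no coordinates were converted. Python 3.11.15 and matplotlib 3.10.9 drew the figures.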

Additional observations from a re-analysis of the deposited data

How the results depend on the processing

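The count of members called higher (35) stayed within 1.5-fold under every alternative except an adjusted p under 0.01, which left 23, and leaving out single libraries gave 25 to 34. For these fits the share of all genes called was not counted. Members called lower remained 0 except with no limit on the fold, which gave 1. Of 35 called members, 23 kept the call under all alternative fits in which they were tested and 12 lost it under at least 1 (Myl3, Tnnt1, Mybpc1, Actn2, Ttn, Tpm2, Ldb3, Trdn, Pvalb, Pygm, Eno3 and Car3). This tally leaves out the stricter limits on the main fit, an adjusted p under 0.01 and an average log2 CPM above 0. Actc1 and Nrap, among the 23, missed the first limit. Myoz1, Tcap, Myot, Nrap, Xirp2, Actc1, Ckmt2, Pgam2 and Ampd1, also among the 23, missed the second. Calls in the other muscle lists (11) fell to 5 with 1 CPM in at least 3 tumors, to 7 with WDR11OE replicates 1 and 2 summed, and to between 6 and 14 without single libraries. Members not tested (10) became 0 without the filter and 22 with 1 CPM in at least 3 tumors, since the filter itself sets them. The fast share per kb of 90.5% was 89.7% to 92.0% without single libraries and 74.8% with Mybpc3 counted among the cardiac forms. The fold of 10 called members moved by over 1.5 times without a single library, in 7 of them without control replicate 1 and in 5 without control replicate 2 (Myh1, Myh4, Tnnc2, Actc1, Acta1, Ldb3, Xirp2, Trdn, Pvalb and Car3).

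Directions turned for genes that were not called. Myh7 was -0.16 with limma-voom, between -0.019 and 0.76 without single libraries and -0.12 with WDR11OE replicates 1 and 3 only. Tnnc1 lay between -0.32 and 0.70 without single libraries, and Tpm1 was 0.50 with counts not scaled to depth. Ryr1 was -0.013 with DESeq2, -0.019 without the filter, between -0.17 and 0.16 without single libraries (-0.14 without control replicate 3) and -0.030 with WDR11OE replicates 1 and 3 only. The cause was not tested. No paired analysis was possible because the replicate numbers were given in accession order and pair no samples. Genes with few counts in every tumor, such as Tnni1, Myh8 and Myog, did not pass the filter, and no test was made of them.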
